A study of Picea abies with 36 samples.

Results

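Transcripts of the Norway spruce (Picea abies) hypocotyl were compared between seedlings given a cytokinin and seedlings given an auxin, 15 days after the hormone was put on the stem. The comparison holds 6 of the 36 libraries of the series, chosen by hormone and day alone: 3 from hypocotyls given BAP (6-benzylaminopurine, a cytokinin) at 135 mM and 3 from hypocotyls given IAA (indole-3-acetic acid, an auxin) at 50 mM. No Mock library enters it. The other groups used below, 3 libraries each, are the same hormones after 5 and 10 days, BAP and IAA together at the same concentrations, and Mock. All seedlings were raised for 2 weeks in a phytotron, received 1 application in lanolin, a wool grease that carries the hormone, to the middle of the hypocotyl, and were sampled as hypocotyl tissue. No genotype or line is named in the labels. The concentrations of BAP and IAA differ, so hormone and concentration cannot be told apart in any value below.

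Cytokinins and auxins are the pair of plant hormones whose balance is best known for steering shoot and root formation in cultured tissue. Cytokinins are perceived by histidine kinase receptors and act through a phosphorelay onto response regulators, while auxin is perceived by TIR1/AFB proteins, which mark Aux/IAA repressors for degradation and so free auxin response factors. In stems, auxin is known for its part in vascular differentiation and in the start of adventitious roots, and cytokinin for its part in cambial cell division and bud outgrowth. The table gives identifiers of gene models and no gene names, so no model could be assigned to these pathways. For the same reason the hypocotyl label was not tested against cell type markers. In bulk tissue, fewer cells of a type and less RNA per cell cannot be told apart.

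The 6 libraries held 14772700 to 17381783 reads in gene models, against 12531117 to 22280720 over the whole series. A library had reads in 41518 to 41650 models with BAP and in 42125 to 42914 models with IAA, of 70736 models in the table. The scaling factors, which adjust a library's total for its composition (TMM), were 1.05 to 1.06 with BAP and 0.959 to 0.982 with IAA. Across genes, libraries of the same hormone correlated at 0.963 to 0.968 with BAP and at 0.960 to 0.968 with IAA, and libraries of different hormones at 0.845 to 0.878. Genes are not independent replicates, so these are descriptions. The first principal component of the 6 libraries carried 71.9% of the variance. The labels do not say that replicates came from separate plants or pools. The p-values therefore measure the spread of the libraries sequenced here, part or all of which may be technical. Replicates differed by more than counting noise.

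At 15 days 4725 gene models were higher and 6520 lower with BAP than with IAA, at an adjusted p of at most 0.05 in edgeR's quasi-likelihood test with Benjamini-Hochberg adjustment. These models are termed called below. They were 12.4% and 17.1% of the 38239 models tested, and 29.4% together. All 3 BAP libraries lay above all 3 IAA libraries in 6907 tested models (18.1%) and below them in 8329 (21.8%). The groups did not overlap in 4350 of the models called higher and in 6204 of those called lower. The share called lower, 58.0% of all calls, depends on the scaling: when libraries were scaled by their totals alone, 7024 models were called higher and 5496 lower, so that 56.1% were higher in place of 42.0%. The median fitted log2 difference of all models was 0.0094 with TMM factors and 0.12 with that scaling. A model fitted to the 6 libraries alone called 3093 higher and 5071 lower.

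The large differences were mostly on the IAA side. Among called models, 168 were at least 16-fold higher with BAP (0.439% of those tested) and 896 at least 16-fold lower (2.34%). At 64-fold or more the numbers were 18 higher and 303 lower, and at 256-fold or more 1 higher and 100 lower. No called model was 1024-fold higher with BAP, and 29 were at least 1024-fold lower. At 4-fold or more, 916 models were higher (2.4%) and 2407 lower (6.29%). At the other end, 2705 of the models called higher and 2315 of those called lower differed by less than 2-fold. The median fold was 1.78 among models called higher with BAP. It was 2.73, as IAA over BAP, among models called lower. The direction of the 16-fold counts did not depend on the scaling, with 198 higher and 848 lower under total counts. Folds were taken from pooled group CPM, counts per scaled library total, and a group with under 3 reads in all was set to 3 reads. Such a group therefore gives a bound when it holds no read.

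**Figure D1:**
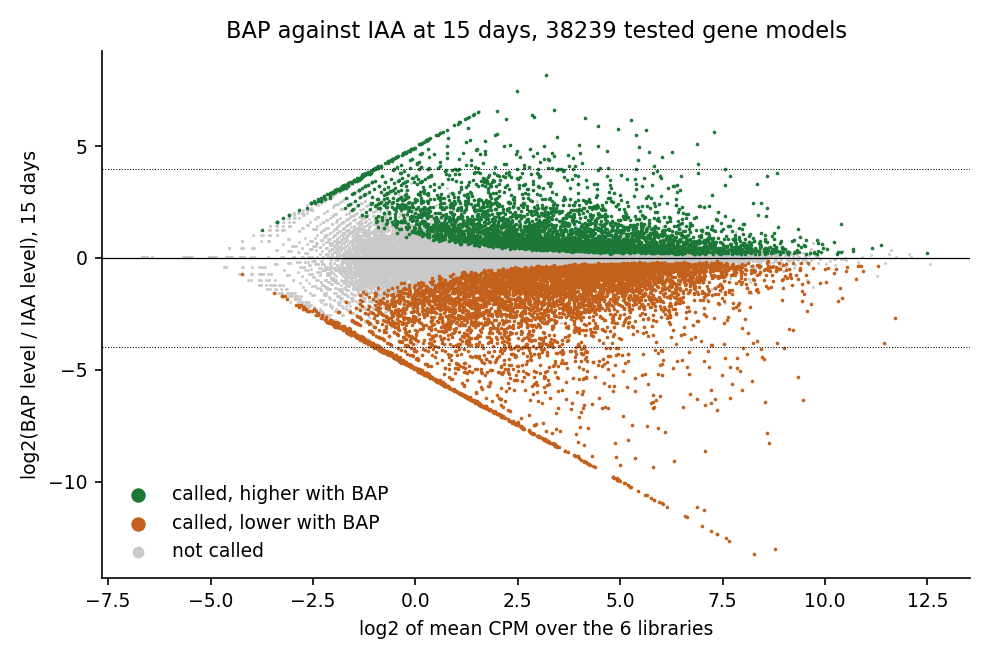
Each point is 1 tested gene model, with its mean level over the 6 libraries of 15 days (log2 CPM) on the horizontal axis and log2 of the BAP level over the IAA level on the vertical axis. Called models are coloured by direction, dotted lines mark 16-fold, and streaks are models with fewer than 3 reads in a group; far more called models lie beyond 16-fold on the IAA side (896) than on the BAP side (168).

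The same tiers were counted on the earlier days from other libraries. At 16-fold or more, 5 days gave 220 called models higher with BAP against 585 lower, and 10 days gave 148 against 948. At 256-fold or more the counts were 1 higher and 59 lower at 5 days, and 2 higher and 122 lower at 10 days. On all 3 days more called models were past 16-fold on the IAA side than on the BAP side. On the 3 days in order, 2852, 2588 and 2020 models were at least 2-fold higher with BAP and 3567, 4438 and 4205 at least 2-fold lower.

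**Figure D2:**
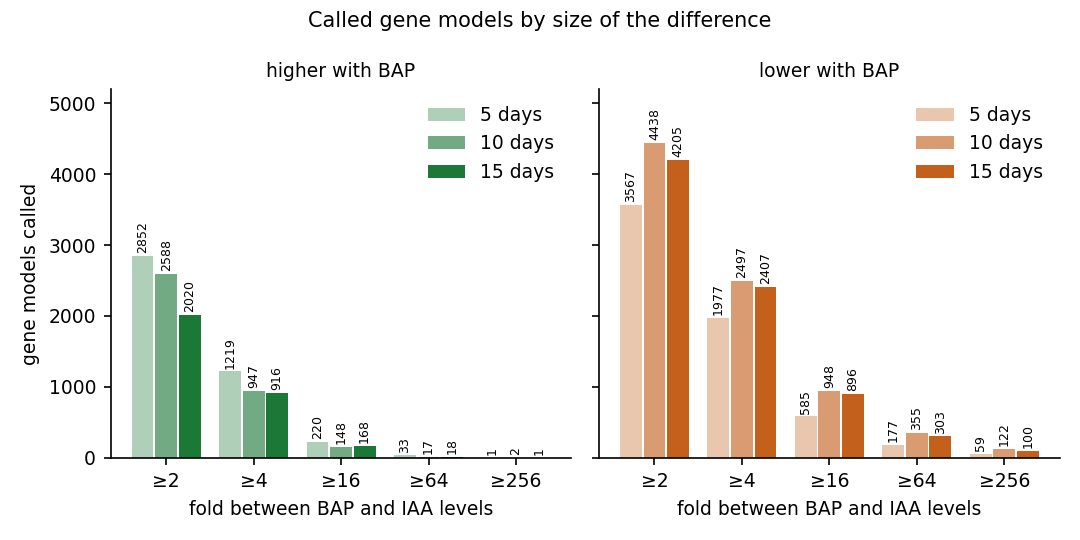
Number of called gene models (vertical axis, linear from 0) at or above each fold, for models higher and lower with BAP than with IAA, at 5, 10 and 15 days. At 16-fold or more there were 220, 148 and 168 models higher and 585, 948 and 896 lower on the 3 days in that order.

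Calls were more frequent among abundant transcripts. Of the 1829 tested models with a mean of 100 to 1000 CPM over the 6 libraries, 48.1% were called, 437 higher and 443 lower with BAP. In the 10 to 100 CPM range 37.5% of 13005 models were called, in the 1 to 10 CPM range 25.4% of 17557, and from 0.1 to 1 CPM 18.2% of 5557. Precision grows with read number, so these shares follow depth as well as difference. At 16-fold or more the 1 to 10 CPM range held 91 models higher with BAP and 509 lower, which is 0.518% and 2.90% of its models, and the 10 to 100 CPM range 28 and 204, or 0.215% and 1.57%. Between 100 and 1000 CPM 3 models were at least 16-fold higher with BAP and 44 lower, or 0.164% and 2.41%, and none of the 50 models above that range reached 16-fold in either direction. Of the 1879 models of at least 100 CPM, 908 were called, and 469 of these differed by less than 1.5-fold. Only 68 of the 1879 were called at least 2-fold higher and 178 at least 2-fold lower.

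The model with the largest fold on the BAP side was MA_17212g0010. It measured 18.5, 22.3 and 14.3 CPM in the BAP libraries, 859 reads in all. In the IAA libraries it held 1 read, in replicate 3. The ratio over that single read was 878, with a 95% counting interval (exact, from the binomial share of reads) of 157 to 34735. With the IAA group set to 3 reads, as in the fold counts above, the fold was 293. The fitted log2 difference was 9.31 ± 0.75 (SE, adjusted p = 2.6e-10, edgeR). Here and below, the SE of a fitted log2 value was back-calculated, as its size over the square root of the test's F statistic. The BAP libraries were all far above the IAA libraries. On the earlier days it was also higher with BAP, at 12.1 ± 2.55 CPM with BAP and 0.0799 CPM with IAA (544 and 4 reads) at 5 days. At 10 days BAP gave 17.7 ± 4.12 CPM, against 1 IAA read.

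MA_408691g0010 followed on the BAP side with 7.79, 11.2 and 14.6 CPM in the BAP libraries, 524 reads in all, and 1 read in the IAA libraries. The ratio over that read was 536 (95% counting interval 95.8 to 21204), the fold with the IAA group set to 3 reads was 179, and the fitted log2 difference was 8.59 ± 0.80 (SE, adjusted p = 2.4e-09, edgeR). With BAP it averaged 4.93 ± 1.73 CPM at 5 days, when IAA held 5 reads, and 11.9 ± 6.27 CPM at 10 days, when IAA held 2 (SD, n = 3). The single IAA read of both models at 15 days lay in the same library, and without that library the log2 differences were 11.16 and 10.45. The IAA group then held no read, so these fitted values depend on the fit's prior count and are not bounds. In the combination at 5, 10 and 15 days MA_17212g0010 averaged 2.28, 8.81 and 12.6 CPM, and MA_408691g0010 0.801, 5.33 and 6.65 CPM. In Mock they averaged 2.58, 1.35 and 1.05 CPM and 0.313, 0.269 and 0.0922 CPM on those days. At 15 days both models thus had their highest group mean with BAP, then the combination, then Mock.

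On the IAA side, MA_1567g0010 had no read in any BAP library on any day. At 15 days the IAA libraries held 465, 774 and 615 CPM, 29461 reads in all. It was at least 9603-fold lower with BAP, counting 3 reads over the BAP group as the floor (adjusted p = 3.5e-09, edgeR). Its IAA level at 5 days was 21.8 ± 4.74 CPM, a fold of at least 337, and its level at 10 days 290 ± 39.2 CPM, a fold of at least 4475 (SD, n = 3). These bounds follow the IAA level. The difference at 15 days was not called changed from 5 or 10 days. With no BAP read that test had almost no power (SE 29814 and 5591). The combination averaged 0.264, 4.41 and 7.23 CPM at 5, 10 and 15 days, and Mock held 6, 0 and 3 reads. Of the 12 group means, only the 3 with IAA alone were above 10 CPM.

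MA_241174g0010 measured 0, 0.321 and 0 CPM in the BAP libraries at 15 days, 5 reads in all, against 843, 906 and 869 CPM in the IAA libraries. It was 8164-fold lower with BAP (95% counting interval 3498 to 25146), with a log2 difference of -12.89 ± 0.77 (SE, adjusted p = 3.1e-12, edgeR). All 5 BAP reads lay in replicate 2, and without that library the log2 difference was -16.72. The BAP group then held no read, so this fitted value depends on the fit's prior count and is not a bound. At 5 days this model held 2 reads with BAP and 18 with IAA and was not called (adjusted p = 0.23, edgeR). At 10 days it averaged 0.206 CPM with BAP and 348 ± 74.7 CPM with IAA, 1803-fold lower with BAP. The change of its difference to 15 days was not called from 5 days (adjusted p = 0.14, edgeR) or from 10 days (adjusted p = 0.7, edgeR). The combination averaged 0.277, 1.66 and 7.39 CPM at 5, 10 and 15 days, and Mock 1.11, 0.682 and 1.35 CPM. Its high level thus belonged to the IAA libraries of 10 and 15 days.

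**Figure D3:**
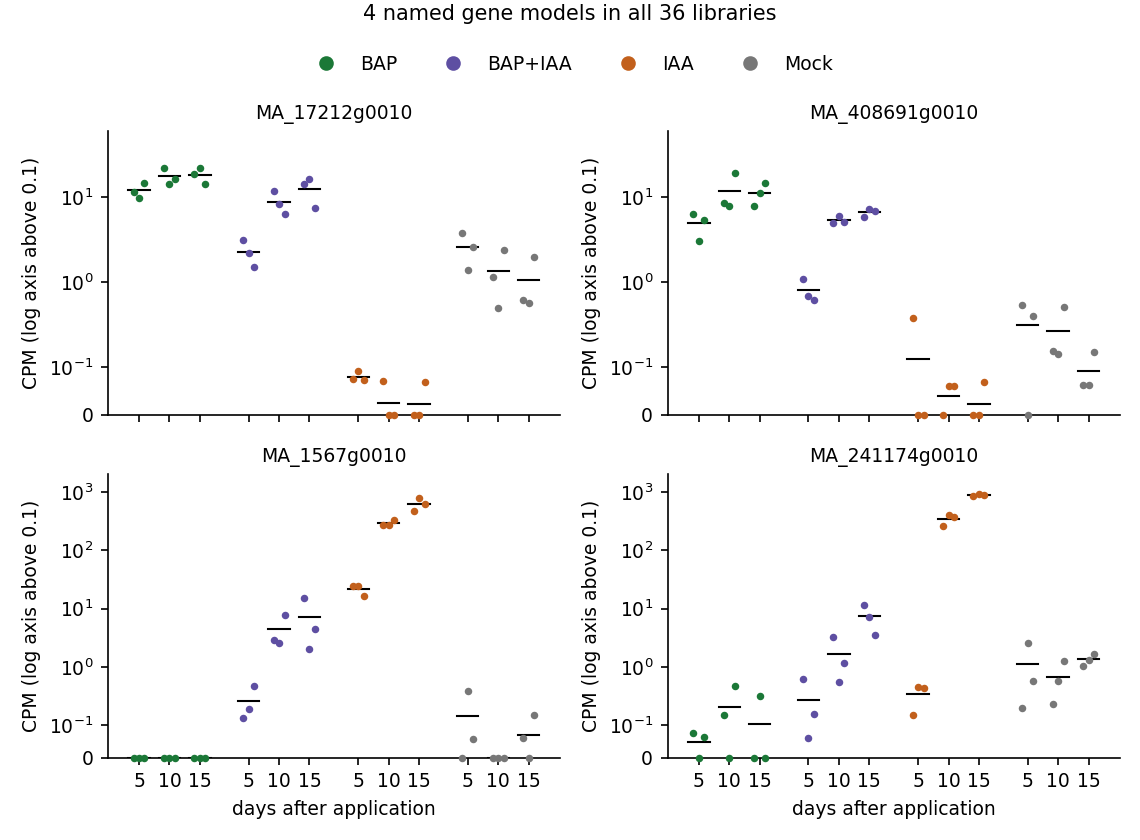
CPM of the 4 named models in all 36 libraries by treatment and day, 1 point a library with a bar at the group mean (the axis is linear near 0 and logarithmic above). MA_17212g0010 and MA_408691g0010 stand at 14.3 to 22.3 and 7.79 to 14.6 CPM with BAP at 15 days, above the IAA libraries, while MA_1567g0010 and MA_241174g0010 reach 465 to 774 and 843 to 906 CPM with IAA.

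In absolute level, the model with the largest excess in IAA hypocotyls (chosen after its values were seen, as are the other models without an identifier) measured 545, 975 and 1172 CPM with BAP and 6924, 4625 and 5782 CPM with IAA. It was 6.46-fold lower with BAP (log2 difference -2.69 ± 0.48, SE, adjusted p = 9.6e-05, edgeR). The combination held 814 ± 231 CPM of it and Mock 53.5 ± 16.1 CPM, so its level was lowest in Mock. The next model averaged 372 ± 25.8 CPM with BAP and 5168 ± 221 CPM with IAA (SD, n = 3), 13.9-fold lower with BAP, with 734 CPM in the combination and 270 CPM in Mock. The models of ranks 3 and 4 by excess were 3.48- and 3.77-fold lower with BAP. The model of rank 5 held 17.0 ± 3.07 CPM with BAP and 1391 ± 295 CPM with IAA (SD, n = 3), 82.8-fold lower with BAP.

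On the BAP side the excesses were smaller in absolute level. The largest was 1984 ± 187 CPM with BAP against 697 ± 58.9 CPM with IAA (SD, n = 3), 2.83-fold higher, with 1248 CPM in the combination and 1167 CPM in Mock. The models of ranks 2, 3 and 5 by excess were 1.48-, 1.16- and 1.37-fold higher. The model of rank 4 measured 399, 803 and 1335 CPM with BAP and 36.6, 99.2 and 44.4 CPM with IAA, 14.0-fold higher (adjusted p = 0.0026, edgeR). All its BAP libraries were above its IAA libraries, but the BAP libraries differed among themselves by more than 3-fold. At 5 days its order was the other way, at 64.7 CPM with BAP and 147 CPM with IAA.

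Some models had reads in all 3 libraries of one hormone and none in the other at 15 days. There were 181 such models with BAP and 718 with IAA, of the 70736 in the table. With at least 10 reads in each library of the one hormone there were 12 with BAP and 258 with IAA, and with at least 100 reads 0 and 61. The highest count in a library was 216 reads in the BAP set and 12633 in the IAA set. Most of these models were scarce, with a median of 11 reads over the 3 libraries with BAP and 30 with IAA. Of the 181, 56 could be tested and 54 were called, and of the 718, 373 were tested and 362 called. A group without reads allows up to 3 reads over its libraries, which is 0.0641 CPM with BAP and 0.0627 CPM with IAA, for counting error only. The counts rest on 3 against 3 libraries, and with 1 library left out they were 287 to 359 and 873 to 1038.

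Of the 718 models seen with IAA alone at 15 days, 456 had no read in the BAP libraries of 5 days and 466 none in those of 10 days. In the IAA libraries 203 had no read at 5 days and 43 none at 10 days. In the combination 356, 313 and 267 had no read at 5, 10 and 15 days, and in Mock 384, 415 and 390. Fewer of these models were thus without reads in the IAA groups than in any other group. Of the 181 models seen with BAP alone, 40 and 19 had no read in the BAP libraries of 5 and 10 days. The counts were 46, 41 and 36 in the combination at 5, 10 and 15 days, 80 and 86 with IAA at 5 and 10 days, and 70, 66 and 65 in Mock.

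Differences at 15 days were close to those at 10 days, which were measured in other libraries. At 10 days 13833 models were called (36.2%), 6114 higher with BAP (16%) and 7719 lower (20.2%). With total counts 60.1% of the 10-day calls were higher with BAP, in place of 44.2%. Of the 6114, 5744 had the same sign at 15 days (93.9%), 3096 were called in the same direction (50.6%) and 6 in the opposite one. Of the 7719, 7368 had the same sign (95.5%), 5217 were called in the same direction (67.6%) and 11 in the opposite one. Among all tested models 12.4% were called higher with BAP at 15 days and 17.1% lower. The median log2 difference was 0.85 at 10 days and 0.48 at 15 days in the higher set, and -1.22 and -0.93 in the lower set. The choice was made on the 10-day values, which favours larger values on that day. Across the 38239 tested models the log2 differences of 15 and 10 days correlated at 0.84. The points share genes and annotation but no library.

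The difference between the hormones was called changed from 10 to 15 days in few models. It was called more positive at 15 days in 73 models (0.191%) and more negative in 39 (0.102%), in edgeR's test of the difference of differences, 0.293% in all. At an unadjusted p under 0.05 there were 2357 and 2031. In the 73 models the median log2 difference was -0.37 at 15 days and -1.39 at 10 days, and in the 39 it was -0.75 at 15 days and 1.20 at 10 days. The models were chosen on these values, so the direction of the change in each set follows from the choice. Both counts were unstable: with 1 of the 12 libraries left out they ran from 2 to 120 and from 0 to 95, and 10 and 9 of the 12 libraries moved them by more than 1.5-fold. A p that misses the threshold does not show that the remaining models were equal on both days. The test also had almost no power for models without reads under 1 hormone on both days. MA_1567g0010, with no BAP read, averaged 290 CPM with IAA at 10 days and 618 CPM at 15 days. The SE of its fitted change was 5591.

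Between 5 and 15 days the difference was called changed in many more models. It was called more positive at 15 days in 3237 models (8.47%) and more negative in 3748 (9.8%), 18.3% in all. Across all tested models the log2 differences of 15 and 5 days correlated at 0.50, and those of 10 and 5 days at 0.64. At 5 days 34.3% of the models were called, and 48.1% of these calls were higher with BAP, or 58.9% with total counts. Of the 6297 called higher with BAP (16.5%), 4721 had the same sign at 15 days (75.0%), and of the 6801 called lower (17.8%), 5205 did (76.5%). At 15 days 2084 of the 6297 (33.1%) were called in the same direction and 456 in the opposite one. Of the 6801, 3069 (45.1%) were called in the same direction and 359 in the opposite one. Among all tested models 12.4% were called higher with BAP at 15 days and 17.1% lower.

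**Figure D4:**
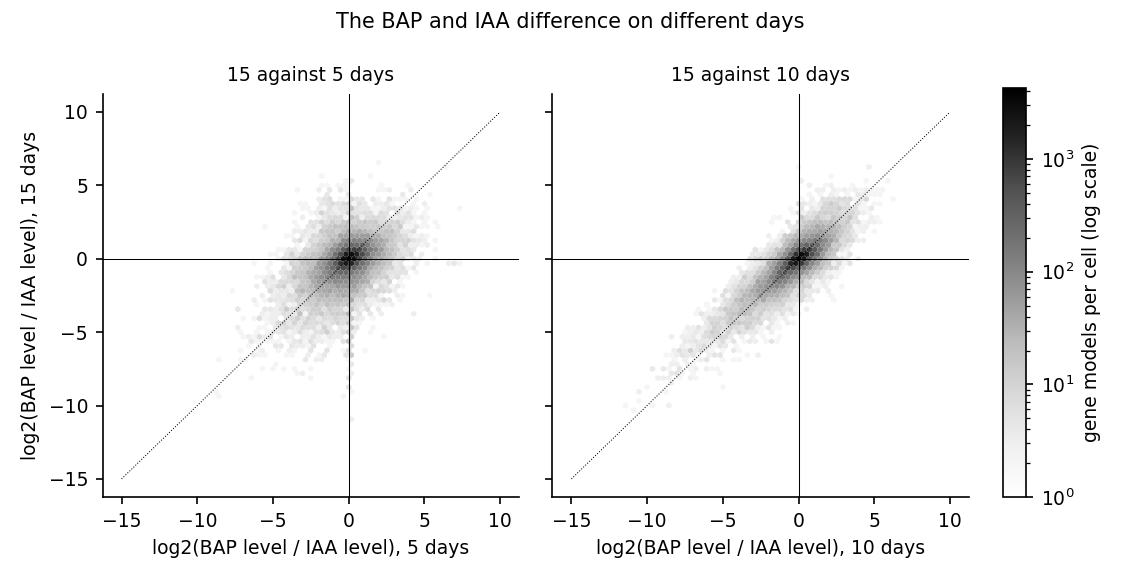
Log2 of BAP over IAA at 15 days (vertical) against that at 5 days and at 10 days (horizontal) for the 38239 tested models, coloured by the number of models in a hexagon. Models lie nearer the diagonal against 10 days (r = 0.84) than against 5 days (r = 0.50).

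Some models were called on opposite sides at 5 and 15 days. They were chosen on the values of those days, so the direction of their medians on those days follows from the choice. The 10-day values took no part in it. In 359 of the 38239 tested models expression was called lower with BAP at 5 days and higher at 15 days. Their median log2 difference was -0.87 at 5 days, 0.35 at 10 days and 0.80 at 15 days. Their median level with BAP was 28.2 CPM at 15 days and 15.3 CPM at 5 days, and with IAA 13.6 CPM at 15 days and 29.0 CPM at 5 days. In 456 models expression was called higher with BAP at 5 days and lower at 15 days, with medians of 1.04, -0.62 and -1.14 on the 3 days. Their median level with BAP was 7.37 CPM at 15 days and 9.33 CPM at 5 days, and with IAA 16.3 CPM at 15 days and 4.23 CPM at 5 days. At 10 days the sign was that of 15 days in 82.5% of the 359 models and in 89.3% of the 456, and both medians had changed sign.

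In a majority of models the level changed more with IAA than with BAP over this time, 60.3% of all tested. In the 3748 models whose difference became more negative, the median log2 change between 5 and 15 days was -0.23 with BAP and 1.08 with IAA, and the IAA change was the larger in 2981 of them (79.5%). In the 3237 models whose difference became more positive the medians were 0.37 with BAP and -0.70 with IAA, and the IAA change was the larger in 1945 (60.1%), a share near that of all tested models. Both sets were chosen by the same 5- and 15-day values. That the BAP median lay below the IAA median in the 3748 models, and above it in the 3237, therefore follows from the choice. The shares were read from those values too and are descriptions. At 15 days 1287 of the 3237 were called higher with BAP, 313 lower and 1637 neither. Of the 3748, 298 were called higher, 1911 lower and 1539 neither. Among all tested models 12.4% were called higher at 15 days and 17.1% lower.

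The 2 models whose difference became most negative between 5 and 15 days came up with IAA. MA_260292g0010 had no read with BAP at 15 days and 101, 126 and 163 CPM with IAA, at least 2003-fold lower with BAP. At 5 days it had 2 reads with BAP and none with IAA, and at 10 days 22.2 ± 9.11 CPM with IAA (SD, n = 3). Its log2 difference at 15 days minus that at 5 days was -16.66 ± 3.53 (SE, adjusted p = 0.0035, edgeR). Both BAP reads of 5 days lay in replicate 2, and without that library the value was -13.97 with an adjusted p of 1 (edgeR). MA_141996g0010 held 3 reads with BAP at 15 days and 132, 228 and 217 CPM with IAA, 2969-fold lower with BAP (95% counting interval 1015 to 14398). At 5 days it held 3 reads with BAP and none with IAA, and at 10 days 23.4 ± 2.78 CPM with IAA (SD, n = 3). The change of its difference was -14.58 ± 2.80 (SE, adjusted p = 0.00055, edgeR). It was -13.81 without BAP replicate 2 of 5 days and -17.73 without BAP replicate 3 of 15 days. Fitted log2 values of models without reads in a group depend on the prior count and are not bounds. The back-calculated SE of such a model depends on it too and is a rough guide only. With a group under 3 reads set to 3 reads, the changes were -11.07 for MA_260292g0010 and -11.64 for MA_141996g0010.

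The 2 models whose difference became most positive had no BAP reads at 5 days. MA_10436732g0030 measured 10.1, 15.7 and 1.48 CPM with BAP at 15 days and 1.78 ± 2.45 CPM with IAA (SD, n = 3), which was not called (adjusted p = 0.15, edgeR). At 5 days it held no read with BAP against 242 IAA reads or 4.52 ± 3.01 CPM (SD, n = 3), so BAP was at least 75.0-fold lower. The change was 11.50 ± 3.06 (SE, adjusted p = 0.0096, edgeR). It was 10.85 without BAP replicate 2 of 15 days and 13.73 without IAA replicate 2 of 15 days. MA_467314g0010 held 9 reads with BAP and 2 with IAA at 15 days, against none with BAP and 205 with IAA at 5 days (4.74 ± 2.76 CPM, SD, n = 3), when BAP was at least 63.5-fold lower. Its change was 11.19 ± 2.25 (SE, adjusted p = 0.0013, edgeR), and without BAP replicate 1 of 15 days it was 8.88 and no longer called (adjusted p = 0.12, edgeR). In both models the larger difference was that of 5 days. With a group under 3 reads set to 3 reads, the changes were 8.55 for MA_10436732g0030 and 7.61 for MA_467314g0010.

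The levels of the hormone-separated models in the combination and in Mock were read at 15 days for models chosen at 10 days, so that no 15-day library took part in the choice. The 948 models called at least 16-fold lower with BAP at 10 days had a median of 0.128 CPM with BAP, 0.594 CPM in the combination, 7.80 CPM with IAA and 0.177 CPM in Mock at 15 days. They took 0.176 ± 0.0363% of the reads with BAP, 0.537 ± 0.145% in the combination, 4.32 ± 0.222% with IAA and 0.332 ± 0.00608% in Mock (SD, n = 3). Mock was nearer to BAP than to IAA in 829 of them (87.4%), against 49.6% of all tested models. The combination was nearer to BAP in 725 (76.5%), against 59.0% of all tested models, and lay between both hormones in 797 (84.1%), against 38.1%. Mock was thus nearer to BAP than to IAA in most of these models, and the combination mostly lay between the hormones. The BAP and Mock medians were near the floor of 3 reads over a group, 0.0641 CPM with BAP, which limits how well nearness can be read.

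The 148 models called at least 16-fold higher with BAP at 10 days had a median of 3.62 CPM with BAP, 1.48 CPM in the combination, 0.324 CPM with IAA and 0.996 CPM in Mock at 15 days. Their share of the reads was 0.356 ± 0.0455% with BAP, 0.248 ± 0.0295% in the combination, 0.0245 ± 0.00312% with IAA and 0.111 ± 0.0241% in Mock (SD, n = 3). The combination was nearer to BAP in 98 of them (66.2%), against 59.0% of all tested models, and between both hormones in 99 (66.9%), against 38.1%. Mock was nearer to BAP in 59 (39.9%), against 49.6%. As in the lower set, the median Mock level lay between those of BAP and IAA.

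**Figure D5:**
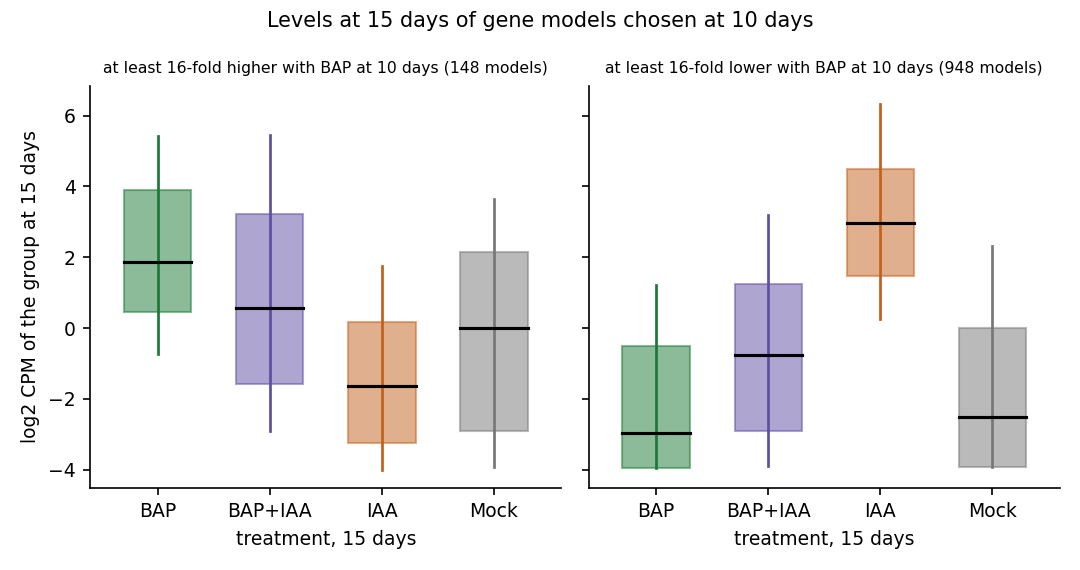
Group levels at 15 days (log2 CPM) with BAP, BAP and IAA together, IAA and Mock, for models called at least 16-fold higher (148) or lower (948) with BAP than with IAA at 10 days. The box spans the quartiles, the line the 10th to the 90th percentile and the black bar the median; in the lower set the IAA median of 7.80 CPM stands above the medians of the other groups, 0.128 to 0.594 CPM.

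Over all models called at 10 days the spread between treatments was narrower. The 6114 models higher with BAP had medians of 12.6 CPM with BAP, 10.9 CPM in the combination, 7.90 CPM with IAA and 10.6 CPM in Mock at 15 days. They took 31.0 ± 1.33% of the reads with BAP, 26.4 ± 0.221% in the combination, 20.1 ± 0.503% with IAA and 28.6 ± 0.362% in Mock (SD, n = 3). The 7719 models lower with BAP had medians of 6.54 CPM with BAP, 7.92 CPM in the combination, 14.9 CPM with IAA and 8.79 CPM in Mock. Their share of the reads was 22.0 ± 0.554% with BAP, 26.0 ± 0.666% in the combination, 36.8 ± 0.719% with IAA and 27.9 ± 0.549% in Mock (SD, n = 3). In both sets the median and the read share of the IAA group lay farther from Mock than those of the BAP group. Model by model, Mock was nearer to BAP in 55.4% of the higher set and in 56.1% of the lower set, against 49.6% of all tested models.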

How the data were processed

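The authors deposited 1 table of unnormalised read counts for each gene model in the 36 libraries of 12 groups of 3. Trimmomatic, STAR and HTSeq are named without versions in the submitters' processing notes. The build, the annotation and the strand setting were not given in the sources used here. Overlapping or antisense models therefore cannot be told apart by their reads, and close paralogs may hold each other's reads. Column names give a collection number, read here as 5, 10 and 15 days in order; the table does not say so.

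The analysis used edgeR 4.0.16 and limma 3.58.1 under R 4.3.3. The filterByExpr function kept 38239 of 70736 models. It left out 32497, of which 18409 had no read. Libraries were scaled by TMM, and 1 quasi-likelihood model of 12 group means (24 residual degrees of freedom, robust dispersion) was fitted to all libraries. Contrasts were tested 2-sided with Benjamini-Hochberg adjustment over all tested models at 0.05. CPM values were computed here from the deposited counts and the scaled library totals. Same-numbered BAP and IAA replicates of 15 days deviated together at r = 0.155, 0.0496 and 0.0486, not above 0.1 in every pair, so replicate numbers were not used as a block.

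Models named at 15 days had to be called, have groups that did not overlap and average at least 1 CPM over the 6 libraries. The 2 with the largest fold in each direction were named, of 4036 higher and 5607 lower with BAP that qualified. For the change between 5 and 15 days, the models had to be called and average at least 1 CPM over the 12 libraries, and those with the 2 highest and 2 lowest log2 changes were named. The comparison, the rules and the alternatives were chosen with earlier results of these data known. Lists by gene name or cell type marker were not tested, because the table holds identifiers only. The model was tested on simulated data with 200 changed models and otherwise equal BAP and IAA means within each day, unlike these data. At 15 days 20.9%, 40.3% and 80.3% of 1.5-, 2- and 4-fold changes (67, 67 and 66 models) were recovered, with 9 wrong calls. For the difference between 15 and 10 days the shares were 5.97%, 20.9% and 63.6%, with 6 wrong calls. For that between 15 and 5 days they were 5.97%, 16.4% and 62.1%, with 4. Wrong calls are to be set against the recovered models, not against all models tested. Alternatives were other scalings, other filters, DESeq2 1.42.0, a fit of fewer libraries, a replicate block, and each replicate left out.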

Additional observations from a re-analysis of the deposited data

Results flagged for a closer look

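Tests of the difference between days flagged these results. The difference between BAP and IAA was called more positive at 15 than at 5 days in 3237 models and more negative in 3748. It was called more positive at 15 than at 10 days in 73 models and more negative in 39. Of these, 48 and 35 were also called in the same direction between 15 and 5 days, against 8.47% and 9.8% of all tested models. Both tests used the same 15-day libraries, so this overlap is not independent. The fitted log2 change between 5 and 15 days was 11.50 for MA_10436732g0030, 11.19 for MA_467314g0010, -16.66 for MA_260292g0010 and -14.58 for MA_141996g0010. With a group under 3 reads set to 3 reads, the changes were 8.55, 7.61, -11.07 and -11.64 in that order. Each of these 4 models had no read in at least 1 of the 4 groups behind its value, and MA_467314g0010 and MA_260292g0010 each lost the call without 1 library.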

How the results depend on the processing

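At 15 days the counts of calls stayed within 1.5-fold with RLE factors (4600 higher and 6632 lower with BAP), with DESeq2 (4692 and 6702) and with each replicate left out (3750 to 4116 and 5730 to 5942). A fit of the 6 libraries alone called 3093 models higher and 5071 lower, and 2957 and 5176 with a replicate block, which kept 57.6% and 73.0% of the calls. In all libraries the replicate block gave 4884 higher and 6788 lower at 15 days. Under the block the change was called in 3431 and 3866 models between 5 and 15 days and in 91 and 54 between 10 and 15 days. In deviations from the group means, each library of 15 days correlated best with its own number (r = 0.0486 to 0.155), a hint from the data and not the design. Between 10 and 15 days, total counts gave 32 models more positive and 34 more negative, so 48.5% were positive in place of 65.2%. No filter gave 37 more positive, and DESeq2 gave 217 and 175. With 1 library left out the counts ran from 2 to 120 and from 0 to 95. The higher count stayed within 1.5-fold without BAP replicate 1 of 15 days (99) or IAA replicate 2 of 10 days (51), and the lower one without IAA replicate 1 or 2 of 15 days (29 and 40) or IAA replicate 2 of 10 days (33). The lower count was 0 in edgeR without IAA replicate 1 of 10 days, BAP replicate 3 or IAA replicate 3 of 15 days, with 1972, 1849 and 2013 models at an unadjusted p under 0.05. Total counts also reversed the majority at the earlier days: at 5 days 7991 were called higher and 5578 lower, and at 10 days 9099 and 6032. With only models of a mean of at least 1 CPM, the 16-fold counts at 15 days were 106 and 593, since fewer models were tested; this alternative and the others on those counts were chosen after seeing the data. Left-out replicates gave 118 to 208 and 802 to 971. Of the 13833 models called at 10 days, 94.8% kept their sign at 15 days, 93.2% with total counts and 92.7 to 95.2% with 1 replicate left out. The median log2 difference of all models was 0.00080 with RLE and 0.12 with total counts. The models seen with 1 hormone alone numbered 12 and 258 at a minimum of 10 reads, and 287 to 359 and 873 to 1038 with 1 replicate left out, where the condition is weaker by construction. MA_467314g0010 was not tested with the 1 CPM minimum. Causes were otherwise not tested. Depth limits scarce models: 3 reads over a group are 0.0641 CPM with BAP and 0.0627 CPM with IAA.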

Other observations

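Identifiers that share the part before the letter g may belong to the same stretch of the assembly, which the files do not state. Among tested models 2170 such prefixes held 4592 models and 2422 pairs of consecutive models. Both members were called at 15 days in 410 pairs (16.9%), in the same direction in 382 of them (93.2%): 160 pairs were higher and 222 lower with BAP. The 2 members went opposite ways in 28. The share called among models with a shared prefix was 30.3%, against 29.4% of all tested models. At 16-fold or more, both members were higher with BAP in 3 pairs and lower in 19. Strand and overlap of these models are not given, so reads counted for both members cannot be told apart from separate transcripts.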
